A study of Mus musculus with 2 samples.

Results

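The genes described here are 44 cell cycle genes of the mouse, a list of G1/S regulators, replication genes and mitotic genes that were found by matching Ensembl identifiers to symbols. All 44 were among the 17646 genes with reads in at least 1 library. All 44 also reached an RPKM (reads per kilobase of listed length and per M library reads) of 1 in one library, the limit for the 12329 genes compared. RNA came from whole hearts of BALB/c embryos at embryonic day 13.5, in 1 library from wild-type (WT) and 1 from SRSF10-/- embryos (KO). The labels give neither how the knockout allele was made nor how many embryos entered a library. SRSF10 is an SR-type regulator of RNA splicing. With 1 library for each genotype nothing was tested, and higher and lower describe these libraries alone.

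In a dividing cell, D-type cyclins with Cdk4 or Cdk6, and then E-type cyclins with Cdk2, free E2F factors to switch on genes for DNA replication. Origins are licensed by loading the MCM helicase and are fired in S phase. Cdk1 with B-type cyclins then drives mitosis, in which kinetochores, motor proteins and the Aurora kinases attach and separate the chromosomes. Heart muscle cells of the embryo still divide, as do other cells of the heart, so whole-heart RNA sums the cycling cells of every type. In such bulk RNA, fewer cycling cells and less RNA per cycling cell cannot be told apart.

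The libraries held 39.61 M (WT) and 38.89 M (KO) uniquely mapped reads. Srsf10 was 24.3-fold lower in KO (21.2 to 27.99), which is the direction of its label. Reads of Y-linked genes, 2955 in WT and 18 in KO, show that sex cannot be told apart from genotype here. Summed cardiomyocyte markers were at 19738 and 18042 RPKM (4 of 12 compared higher), in the order WT and KO. Fibroblast and cushion markers summed to 953 and 697 RPKM (0 of 10 compared higher), endothelial and endocardial markers to 383 and 375 RPKM (5 of 10 compared higher), and red cell markers to 4940 and 3821 RPKM (4 of 12 compared higher). Macrophage and leukocyte markers summed to 79.99 and 103 RPKM (9 of 11 compared higher), smooth muscle markers to 2302 and 2758 RPKM (4 of 5 compared higher), epicardial markers to 137 and 159 RPKM (4 of 6 compared higher) and skeletal muscle markers to 356 and 444 RPKM (4 of 5 compared higher). Hepatocyte markers were low, at 5.69 and 2.901 RPKM (1 of 3 compared higher). Among them, Afp had 145 reads in WT and 4 in KO, and Apoa1 19 and 2. Apoa2 had 39 and 42 reads, and Ttr 22 and 34. Alb, Serpina1a and the muscle stem cell gene Pax7 had 0 reads in KO, against 88, 2 and 12 reads in WT. The 2 reads of Serpina1a are too few to show a difference. Most of the summed skeletal muscle RPKM came from Acta1, which was higher in KO, and Ckm, which was lower. Myod1 and Myog of that list were too low to be compared. Both had fewer reads in KO, Myod1 with 18 in WT and 2 in KO, and Myog with 41 and 18. The part of these cell types in the cell cycle values was not tested.

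As a group, the cell cycle genes took up nearly the same share of the reads of both libraries. Their summed reads were 247572 in WT and 242937 in KO, and the 95% interval of the KO to WT ratio per library read, an exact binomial interval that covers counting error only, held 1. All folds and log2 ratios given here are of that quantity. The level sum rests in part on the long gene Mki67, with 22122 of these reads in WT and 27211 in KO. Summed RPKM, in which long genes weigh less, was 1966 in WT and 1892 in KO. The median log2 ratio, KO over WT, was -0.02 for the 44 genes, with 20 above 0 and 24 below. For all 12329 genes compared it was -0.01, with 5944 above 0 and 6385 below. The sign of so small a median depends on scaling: for the 44 genes it was 0.00445 with library totals taken without the 100 most abundant genes and 0.02 when genes were centred on others of like expression level.

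Differences of at least 1.2-fold were few. Mki67 was the 1 gene that was higher by that much (2.27%, against 13.8% of all genes compared). Aurkb, Cdc20, Ccnd3 and Rrm2 were the 4 that were lower (9.09%, against 13.5% of all genes). At a limit of 1.1-fold, 6 were higher (13.6%) and 10 lower (22.7%), against 26.0% and 28.0% of all genes. The median absolute log2 ratio was 0.12 for the cell cycle genes, 0.15 for all genes and 0.13 for those that reached an RPKM of 5 in one library.

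**Figure D1:**
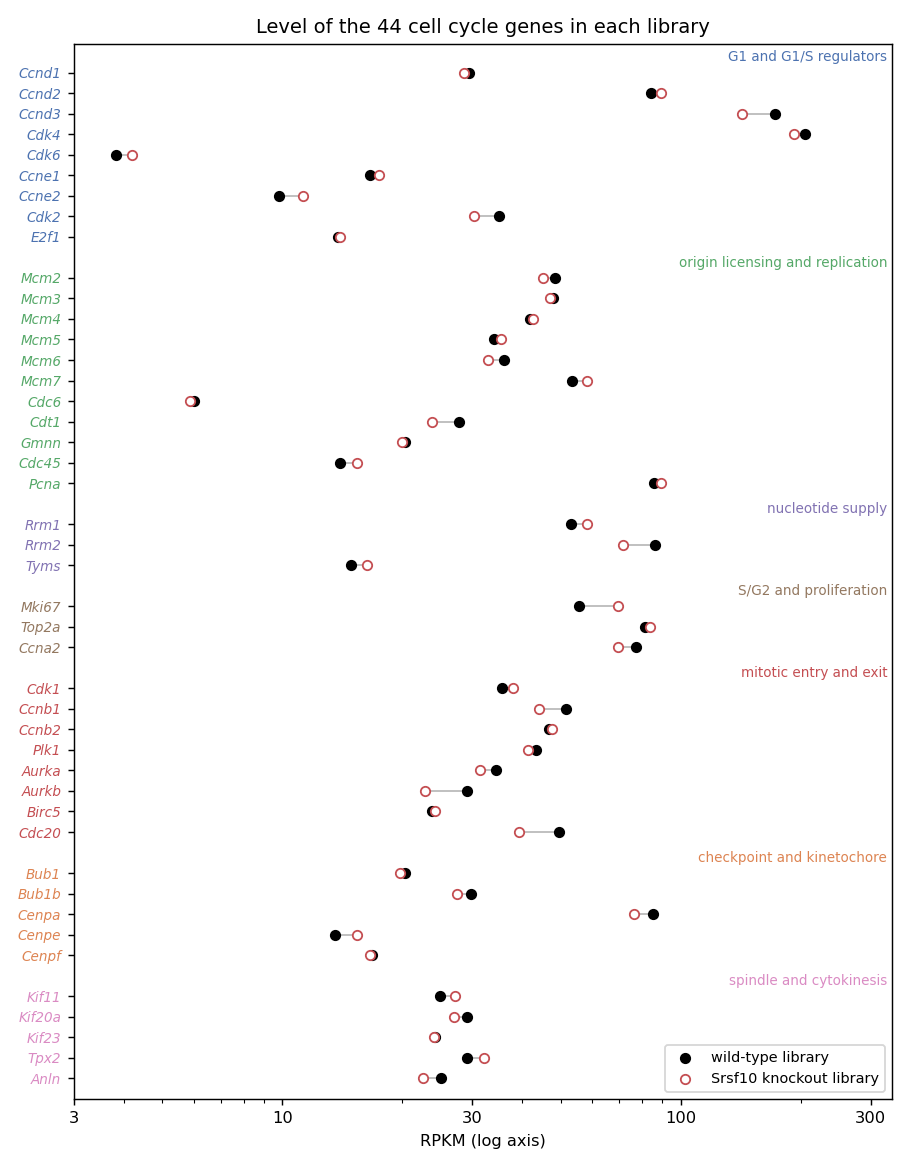
RPKM of each of the 44 genes on a log axis, with filled points for the wild-type library and open points for the knockout library, grouped by role. Levels in WT run from 3.83 RPKM for Cdk6 to 206 RPKM for Cdk4, and the points of most genes lie next to each other.

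The G1 regulators held both the most and the least abundant of the 44 genes. Cdk4, a kinase partner of the D-type cyclins, had 206 RPKM in WT and 193 in KO, 1.07-fold lower (1.04 to 1.09). Its relative Cdk6 had 3.83 RPKM in WT and 4.2 in KO, 1.096-fold higher (0.976 to 1.23), an interval that held 1. On the length-scaled RPKM, Cdk4 thus exceeded Cdk6 by far in both libraries.

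The D-type cyclins differed in direction. Ccnd3 had 173 RPKM in WT and 143 in KO, 1.21-fold lower (1.18 to 1.24). Ccnd2 had 84.1 RPKM in WT and 89.5 in KO, 1.06-fold higher (1.04 to 1.09), and Ccnd1 had 29.4 RPKM in WT and 28.5 in KO with an interval that held 1. Ccnd3 stayed the most abundant and Ccnd1 the least: Ccnd3 made up 60.4% of their summed RPKM in WT and 54.8% in KO, and Ccnd2 29.3% and 34.3%. Summed reads of the 3 genes were 1.04-fold lower (1.02 to 1.05).

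The E-type cyclins lay above 0. Ccne2 had 9.79 RPKM in WT and 11.3 in KO, 1.15-fold higher (1.07 to 1.25). Ccne1 had 16.6 RPKM in WT and 17.5 in KO, 1.05-fold higher (0.974 to 1.14), an interval that held 1. Cdk2, the kinase they activate, lay on the other side, with 34.9 RPKM in WT and 30.2 in KO, 1.15-fold lower (1.098 to 1.21). E2f1, an activator of replication genes, had 13.8 RPKM in WT and 13.98 in KO, and its interval held 1. Over the 9 G1 and G1/S regulators the median log2 ratio was 0.02, with 5 above 0.

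The MCM helicase, a ring of 6 different subunits, was level as a whole. Its summed reads were 35152 in WT and 34303 in KO, with a ratio whose interval held 1. The subunits ran from Mcm6, at 36.04 and 32.9 RPKM in WT and KO and 1.09-fold lower (1.06 to 1.14), to Mcm7, at 53.4 and 58.2 RPKM and 1.09-fold higher (1.05 to 1.13). In between, Mcm2 (48.3 and 45.04 RPKM) was 1.07-fold lower and Mcm5 (34.1 and 35.5 RPKM) 1.04-fold higher, while the intervals of Mcm3 (47.8 and 46.9 RPKM) and Mcm4 (41.8 and 42.6 RPKM) held 1. The log2 ratio was above 0 for 3 of the 6 and below 0 for 3, and Mcm3 turned to above 0 when centred by expression level. Mcm7 had the highest RPKM of the ring in both libraries. It shares 37.6% of its 31-base words with other annotated genes, chiefly the processed pseudogene Gm5487. Its reads still covered 96.9% of its listed length in WT and 87.04% in KO. How far the shared words affected its counts was not tested.

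Of the helicase loaders, Cdt1 was lower, with 27.7 RPKM in WT and 23.7 in KO, 1.17-fold lower (1.101 to 1.24). Cdc6, which loads the helicase with it, had 6.004 RPKM in WT and 5.85 in KO, and Gmnn (geminin), the inhibitor of Cdt1, had 20.3 and 19.9 RPKM, both with intervals that held 1. Cdc45, which joins the helicase when origins fire, had 13.9 and 15.4 RPKM, 1.11-fold higher (1.02 to 1.198). Pcna, the sliding clamp of DNA polymerases, had 85.8 and 89.4 RPKM, 1.04-fold higher (1.003 to 1.08), with 37.97% of its words in other genes, chiefly Pcna-ps2. Loading, firing and clamp genes thus lay on both sides of 0.

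The enzymes that make DNA precursors split as well. Rrm1 and Rrm2 encode the large and the small subunit of ribonucleotide reductase. Rrm1 had 52.9 RPKM in WT and 58.2 in KO, 1.1-fold higher (1.07 to 1.13), whereas Rrm2 had 86.1 RPKM in WT and 71.7 in KO, 1.201-fold lower (1.16 to 1.24). The RPKM of Rrm2 exceeded that of Rrm1 in both libraries, by less in KO. Tyms, the thymidylate synthase, had 14.9 RPKM in WT and 16.4 in KO, 1.1-fold higher (1.04 to 1.16).

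Among genes of S phase and G2, Mki67 stood at the upper end. It encodes Ki-67, a protein of the surface of mitotic chromosomes and a common marker of proliferating cells. Mki67 had 22122 reads (55.4 RPKM) in WT and 27211 reads (69.5 RPKM) in KO, 1.25-fold higher (1.23 to 1.28). Top2a, the DNA topoisomerase of dividing cells, had 81.5 RPKM in WT and 83.6 in KO, 1.03-fold higher (1.004 to 1.05). Ccna2, the cyclin A of S phase and G2, went the other way, with 77.1 RPKM in WT and 69.7 in KO, 1.11-fold lower (1.07 to 1.14). These 3 genes had no common direction.

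**Figure D2:**
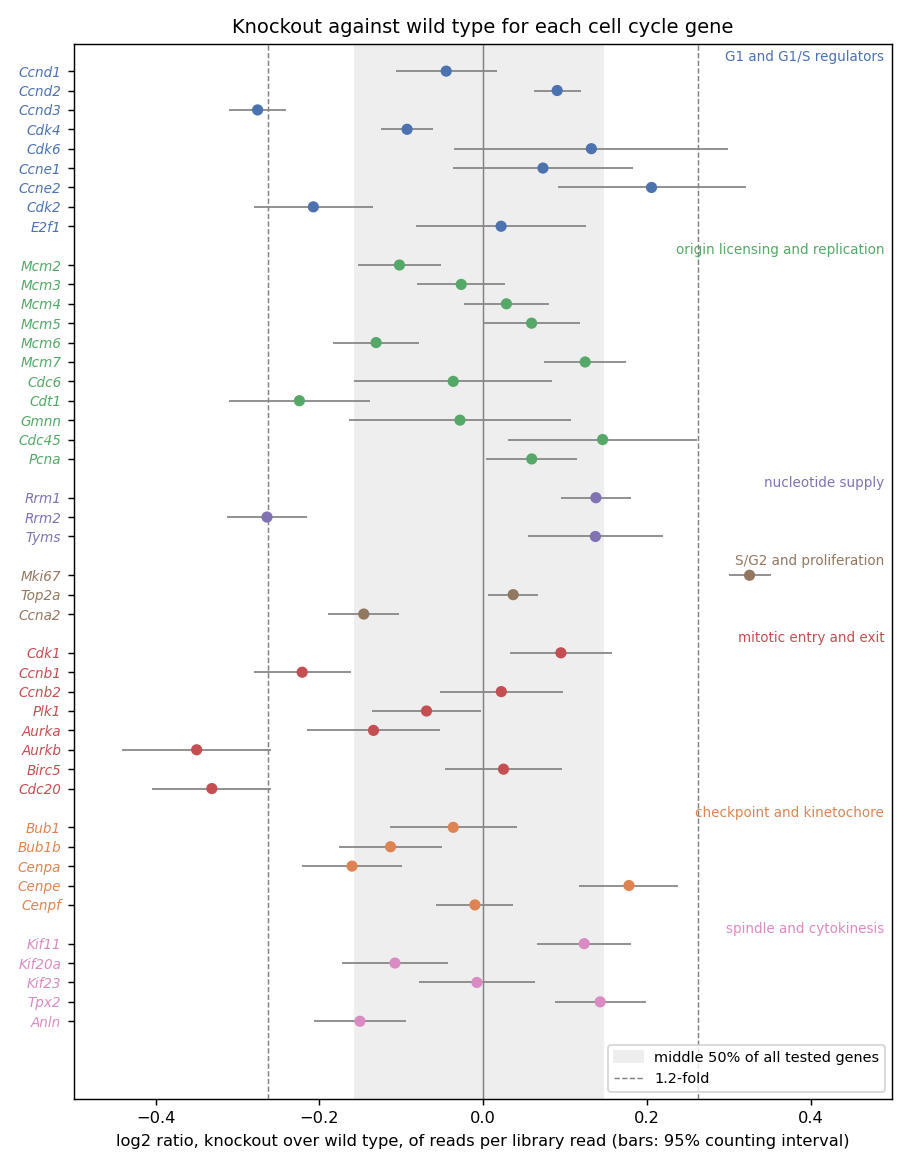
Log2 ratio of reads per library read, knockout over wild type, for each gene, with bars for the 95% counting interval, a grey band for the middle 50% of all genes compared (-0.16 to 0.15) and dashed lines at 1.2-fold. Mki67 lies beyond the upper line, and Aurkb, Cdc20, Ccnd3 and Rrm2 lie beyond the lower one, Rrm2 only just.

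Regulators of mitotic entry and exit had the lowest median log2 ratio of the 7 role groups, -0.10, with 5 of 8 below 0. Aurkb, the Aurora kinase of the chromosomal passenger complex, which corrects chromosome attachment and acts in cytokinesis, had 2241 reads (29.01 RPKM) in WT and 1726 reads (22.8 RPKM) in KO. It was 1.27-fold lower (1.196 to 1.36), the largest fold of the 44. Cdc20, which activates the anaphase-promoting complex, had 3507 reads (49.4 RPKM) in WT and 2736 reads (39.2 RPKM) in KO, 1.26-fold lower (1.197 to 1.32). Cdc20 shares 27.4% of its words with other genes, chiefly the pseudogene Gm7856, and lies on chromosome 4 like Srsf10, with 284 protein-coding genes between them.

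The other mitotic regulators differed less. Ccnb1 had 51.5 RPKM in WT and 44.2 in KO, 1.17-fold lower (1.12 to 1.21), whereas the second B-type cyclin, Ccnb2, had 46.8 and 47.5 RPKM and an interval that held 1. Of the words of Ccnb1, 46.9% occur in other genes, among them Ccnb1-ps, and of those of Ccnb2 none. Cdk1, the kinase both activate, had 35.6 and 37.99 RPKM, 1.07-fold higher (1.02 to 1.12). Aurka, the Aurora kinase of the spindle poles, had 34.3 and 31.3 RPKM, 1.097-fold lower (1.04 to 1.16). The kinase Plk1 had 43.5 and 41.4 RPKM, 1.05-fold lower (1.002 to 1.099), and Birc5 (survivin), a partner of Aurkb, had 23.7 and 24.1 RPKM with an interval that held 1. Cdk1, Ccnb2 and Birc5 were thus the members of this group at or above WT.

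Of the 5 kinetochore and checkpoint genes, Cenpa and Bub1b were lower and Cenpe was higher by more than counting error, and the group's median was -0.04. Cenpa, the histone variant that marks centromeres, had 85.1 RPKM in WT and 76.2 in KO, 1.12-fold lower (1.07 to 1.17). Bub1b, which encodes the checkpoint protein BubR1, had 29.7 and 27.5 RPKM, 1.08-fold lower (1.04 to 1.13), and the intervals of the checkpoint kinase gene Bub1 (20.3 and 19.8 RPKM) and of Cenpf (16.8 and 16.6 RPKM) held 1. Cenpe, a kinetochore motor, had 13.6 RPKM in WT and 15.4 in KO, 1.13-fold higher (1.08 to 1.18). Cenpf, a large protein of the outer kinetochore, turned to above 0 under 3 of 12 other settings, which changed the library total or centred genes by expression level.

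Spindle and cytokinesis genes had a median of -0.01, with 2 of 5 above 0. Tpx2, a spindle assembly factor that activates Aurka, had 29.1 RPKM in WT and 32.1 in KO, 1.104-fold higher (1.06 to 1.15), and the spindle motor Kif11 had 24.8 and 27.1 RPKM, 1.09-fold higher (1.05 to 1.13). The remaining genes act in cytokinesis. Anln (anillin) had 25.02 and 22.5 RPKM, 1.11-fold lower (1.07 to 1.15), Kif20a 29.03 and 26.9 RPKM, 1.08-fold lower (1.03 to 1.13), and Kif23 24.1 and 24.01 RPKM with an interval that held 1 and a sign that changed under 5 of 12 other settings. Among other genes of cytokinesis, picked after their values were seen, Ect2 was 1.09-fold higher (1.04 to 1.15), Cep55 1.11-fold higher (1.03 to 1.19) and Kif14 1.11-fold higher (1.02 to 1.22). Cit was 1.08-fold lower (1.006 to 1.16), and the intervals of Prc1 and Racgap1 held 1. Genes picked in this way say nothing of the direction of cytokinesis genes as a set.

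The replication set was then placed beside the mitosis set. Over all genes compared, 5944 of 12329 log2 ratios were above 0. The replication set (Mcm2 to Mcm7, Pcna, Rrm1, Rrm2, Ccne1 and Ccne2) had a median log2 ratio of 0.06, with 7 of 11 above 0. The mitosis set (Ccnb1, Ccnb2, Aurka, Aurkb, Cenpa, Cenpe, Cenpf, Kif11, Kif20a and Kif23) had one of -0.06, with 3 of 10 above 0. The medians differed by 0.12, and the sets overlapped: the replication set ran from -0.26 to 0.21 and the mitosis set from -0.35 to 0.18. In summed reads the interval of the replication set held 1, and the mitosis set was 1.03-fold lower (1.02 to 1.05). The ratio of the sets was 1.43 in WT and 1.47 in KO by summed reads, and 1.44 and 1.53 by summed RPKM. Without the genes that have near-identical copies (Mcm7, Pcna and Ccnb1 in these sets) the difference in medians was 0.04. The genes are not replicates of a condition, and the difference was not tested.

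Wider lists of cell cycle genes also had few differences of at least 1.2-fold. Of 186 genes in 8 lists, 183 were compared, with 14 at least 1.2-fold higher and 14 lower (7.65% each, against 13.8% and 13.5% of all genes). The 45 further replication genes had 4 higher, 1 lower (8.89% and 2.22%) and a median of 0.02. Cdc7, the kinase that fires origins, had 9.35 RPKM in WT and 12.5 in KO, 1.34-fold higher (1.25 to 1.44). Pold1, the catalytic subunit of DNA polymerase delta, was 1.22-fold lower (1.15 to 1.29), and the maintenance methyltransferase Dnmt1, the most abundant of the list, 1.05-fold lower at 48.02 and 45.7 RPKM. Orc4 of the origin recognition complex was 1.295-fold higher, the replication factor gene Mcm10 1.23-fold higher and the primase subunit gene Prim2 1.201-fold higher, and these 3 were picked after their values were seen. The 11 genes of nucleotide synthesis had a median of -0.06. In that list the p53-induced reductase subunit Rrm2b was 1.32-fold higher (1.201 to 1.44), Cad, which starts pyrimidine synthesis, 1.18-fold lower (1.13 to 1.24), and the purine enzyme Paics, the most abundant, 1.04-fold lower.

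Mitotic regulators outside the 44 had 16 of 23 genes below 0, a median of -0.06, and 3 at least 1.2-fold lower with 0 higher. The 13.04% that were lower lie near the 13.5% of all genes. Fzr1, the other activator of the anaphase-promoting complex, was 1.22-fold lower (1.16 to 1.29). Ube2s, a ubiquitin-conjugating enzyme of that complex and the most abundant of the list, had 183 RPKM in WT and 152 in KO, 1.21-fold lower (1.17 to 1.25). Cdc25c, a phosphatase that activates Cdk1, was 1.21-fold lower, picked after its value was seen, and Mastl, a kinase of mitotic entry, had the highest ratio of the list at 1.11-fold higher (1.02 to 1.204). The 12 genes of the complex itself had 6 above 0 and 6 below. Its subunit Cdc16 had 43.3 RPKM in WT and 29.96 in KO, 1.45-fold lower (1.38 to 1.52), Anapc10 was 1.202-fold higher (1.07 to 1.36), and the interval of the most abundant, Anapc13, held 1.

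The 32 further kinetochore and checkpoint genes had 2 at least 1.2-fold higher, 4 lower (6.25% and 12.5%, against 13.8% and 13.5% of all genes), with 19 above 0 and a median of 0.02. Cenph, an inner kinetochore protein, had 500 reads (10.1 RPKM) in WT and 313 reads (6.43 RPKM) in KO, 1.57-fold lower (1.36 to 1.81). Ska1, a microtubule-binding kinetochore protein, was 1.45-fold higher (1.31 to 1.62), and the interval of the most abundant, Zwint, held 1 at 76.4 and 76.6 RPKM. Picked after its value was seen, Sgo1 (shugoshin), which protects cohesion at centromeres, was 1.21-fold higher. The 34 genes of the spindle, condensin and cytokinesis had a median of 0.03. Aspm, a spindle pole protein, was 1.27-fold higher (1.21 to 1.33), the spindle protein gene Tacc3 1.205-fold lower (1.14 to 1.27), and the tubulin gene Tubb5, the most abundant, 1.06-fold lower at 711 and 674 RPKM. The motor gene Kif20b, picked after its value was seen, was 1.24-fold higher.

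Inhibitors of the cycle and E2F partners also went both ways. Of 12 CDK inhibitors, pocket proteins and related genes compared, 3 were at least 1.2-fold higher and 2 lower (25% and 16.7%, against 13.8% and 13.5% of all genes), with a median of -0.05. Ccng1, the p53-induced cyclin G1, had 55.9 RPKM in WT and 81.3 in KO, 1.45-fold higher (1.41 to 1.497). Cdkn2c, an inhibitor of Cdk4 and Cdk6, was 1.31-fold lower (1.15 to 1.48), and Cdkn1c (p57), the most abundant inhibitor, 1.04-fold lower (1.02 to 1.06) at 331 and 319 RPKM. Picked after their values were seen, Cdkn1a (p21) was 1.32-fold higher (1.21 to 1.44), Rb1 1.22-fold higher and Rbl2 1.23-fold lower. The 14 genes of the E2F family and of DREAM, a complex that represses cell cycle genes in resting cells, had a median of -0.06. In that list the repressor E2f8 was 1.25-fold lower (1.18 to 1.33), the DREAM subunit gene Lin37 1.21-fold higher (1.07 to 1.37) and Rbbp4, the most abundant, 1.13-fold lower. E2f2, picked after its value was seen, was 1.32-fold lower (1.16 to 1.51) at 2.89 and 2.18 RPKM, and 10 protein-coding genes lie between it and Srsf10.

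**Figure D3:**
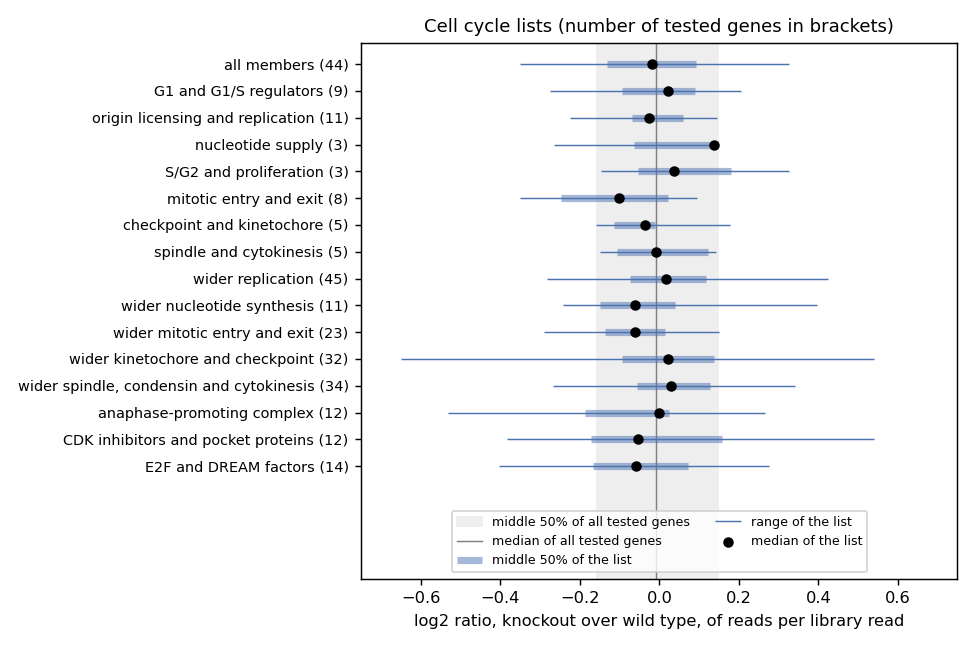
Log2 ratio of reads per library read, knockout over wild type, for each cell cycle list: points are list medians, thick bars the middle 50% of a list, thin lines its full range, and the grey band the middle 50% of all genes compared. The list medians lie between -0.10 and 0.14, inside the band, and the wider kinetochore list has the widest range (-0.65 to 0.54).

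Among the 44 genes, length and base composition moved with the ratios. Across the 44 genes, which share the same libraries, the log2 ratio was higher for longer listed genes (Pearson r 0.46, Spearman rho 0.43) and lower at high transcript GC content (r -0.42, rho -0.37). It was also lower for genes of higher RPKM in WT (r -0.35, rho -0.32). The WT level is also the denominator of the ratio, which by itself favours negative values, so nothing is concluded on level. The relation to length was not shared by every set. It was weaker over the 183 wider cell cycle genes (r 0.14, rho 0.13) and over all genes (r 0.05, rho 0.10). In the 11 genes of the replication set, length gave r 0.02 and rho -0.11, and GC content r -0.26 and rho -0.21. In the 10 genes of the mitosis set, length gave r 0.59 and rho 0.50, and GC content r -0.68 and rho -0.62. Over all genes, GC content gave r -0.13 and rho -0.22, and RPKM in WT r -0.18 and rho -0.21. The 21 genes shorter than 3000 bases had a median log2 ratio of -0.09, the 17 genes of 3000 to 5000 bases one of 0.02 and the 6 longer genes one of 0.06. The medians of all genes in these classes were -0.03, -0.02 and 0.04. Mki67 is listed at 10075 bases, whereas Aurkb, Cdc20, Ccnd3 and Rrm2 are listed at 1793 to 2193 bases. After centring on genes of like length, 0 of the 44 genes were at least 1.2-fold higher and 2 at least 1.2-fold lower.

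**Figure D4:**
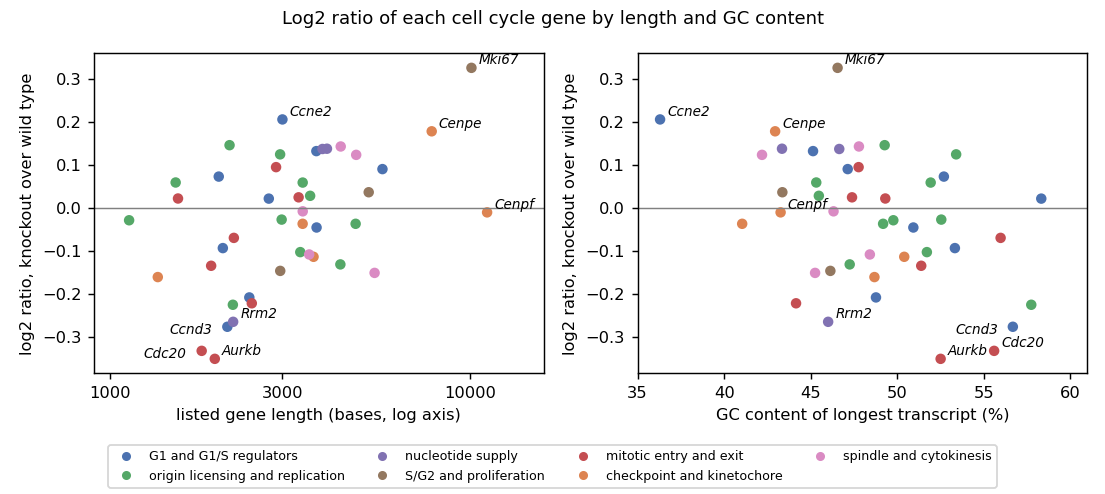
Log2 ratio of each cell cycle gene against its listed length in bases (left, log axis) and against the GC content of its longest annotated transcript in % (right), coloured by role. Aurkb, Cdc20, Ccnd3 and Rrm2 sit together at short lengths in the left panel, and Mki67, the second longest of the genes, at the top.

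The share of a gene's length with reads on it, deposited beside the counts, was compared as a separate readout after its values had been seen. Of the 44 genes, 5 had at least 5 percentage points less covered length in KO (11.4%, against 8.98% of all genes), and 0 had at least 5 points more (against 8.51%). Among genes with at least 1000 reads in both libraries, less covered length was seen for 5 of 42 cell cycle genes (11.9%) and 4.64% of all such genes, and more covered length for 0 and 4.23%. At the other limits the shares were close to those of all genes: 7 of 44 (15.9%, against 14.9%) at 3 points and 2 of 44 (4.55%, against 3.36%) at 10 points. They were less close among genes with at least 1000 reads in both libraries: 16.7% against 9.13% at 3 points and 4.76% against 1.42% at 10 points. Ccnd1 went from 95.8% in WT to 79.9% in KO, at 4363 and 4151 reads. Kif20a went from 87.3% in WT to 76.1% in KO and Mcm7 from 96.9% in WT to 87.04% in KO. The others were Cdk4, from 87.5% in WT to 78.6% in KO, and Ccnb1, from 98.6% in WT to 91.5% in KO. In reads, Ccnb1 was 1.17-fold, Kif20a 1.08-fold and Cdk4 1.07-fold lower, and the interval of Ccnd1 held 1. Mcm7, which shares words with a pseudogene, was 1.09-fold higher. Whether less covered length goes with level was not tested. Which stretches of a gene lacked reads was not analysed here.

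**Figure D5:**
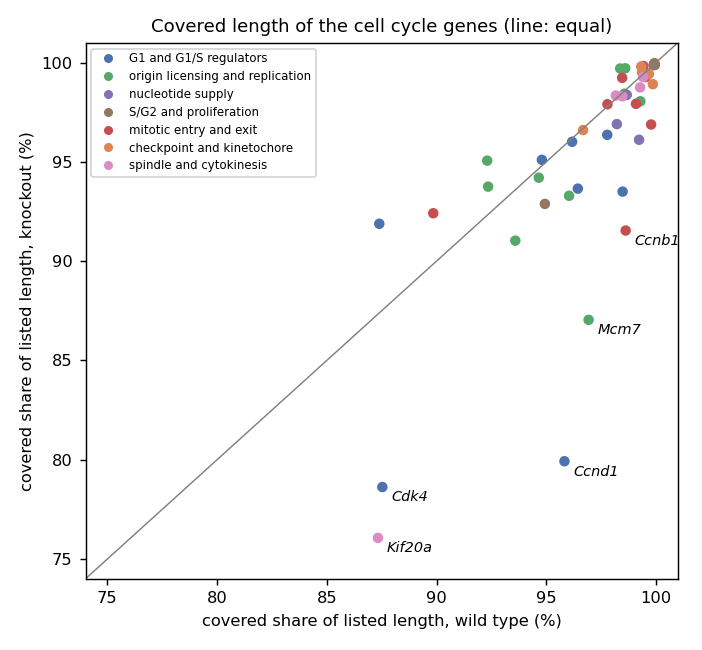
Share of the listed length covered by reads (%) in the wild-type library (x axis) against the knockout library (y axis) for each cell cycle gene, coloured by role, with a line of equality. The named genes Ccnd1, Kif20a, Mcm7, Cdk4 and Ccnb1 lie farthest below the line.

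Promoters of such genes carry elements known for timed expression: E2F sites, typical of replication genes, and the cell cycle genes homology region with CCAAT boxes, typical of mitotic genes. RefSeq sequences (GRCm38.p6) of the 250 bases before the annotated start were at hand for 35 of the 44 genes and were searched on both strands. The word CCAAT was present for 26 (74.3%, against 37.5% of all 27025 genes with a promoter, a gene being counted once where any of its promoters held the word). A homology region word, TTTGAA or TTCGAA, was present for 10 (28.6%, against 19.6%), and an E2F word (TTTGGCGC, TTTCGCGC, TTTCCCGC or TTTGCCGC) for 6 (17.1%, against 2.16%). Different motifs overlapped in 0 of these promoters, while E2F words can overlap each other. CCAAT was present for 8 of 9 genes of the replication set and 8 of 8 of the mitosis set with a sequence, and E2F words for 3 and 0. Homology region words did not differ much between the sets, with 2 of 9 (22.2%) and 2 of 8 (25%), near the 19.6% of all genes.

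The promoters of 5 genes are shown because genes with like elements differed in direction. Capitals mark the words searched, on either strand, and each sequence reads 5′ to 3′ towards the start of the gene. The mitotic genes Cdc20 (chr4:118437344-118437593, minus strand), which was lower, and Kif11 (chr19:37376132-37376381, plus strand), which was higher, both hold a homology region word just before the start and CCAAT. Cdk1 (chr10:69352913-69353162, minus strand), slightly higher, holds all 3 kinds of word. The helicase genes Mcm5 (chr8:75109259-75109508, plus strand), slightly higher, and Mcm6 (chr1:128359706-128359955, minus strand), lower, hold overlapping E2F words and CCAAT.
Cdc20: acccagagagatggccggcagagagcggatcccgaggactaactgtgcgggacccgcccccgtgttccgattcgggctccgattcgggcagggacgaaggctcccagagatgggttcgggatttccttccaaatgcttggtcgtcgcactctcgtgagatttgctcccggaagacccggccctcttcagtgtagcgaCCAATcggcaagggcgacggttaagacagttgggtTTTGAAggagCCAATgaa
Kif11: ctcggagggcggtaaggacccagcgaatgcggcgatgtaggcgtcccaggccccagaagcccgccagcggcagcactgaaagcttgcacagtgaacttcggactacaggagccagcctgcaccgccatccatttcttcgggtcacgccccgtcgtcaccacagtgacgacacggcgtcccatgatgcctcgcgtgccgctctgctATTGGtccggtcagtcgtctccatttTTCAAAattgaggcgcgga
Cdk1: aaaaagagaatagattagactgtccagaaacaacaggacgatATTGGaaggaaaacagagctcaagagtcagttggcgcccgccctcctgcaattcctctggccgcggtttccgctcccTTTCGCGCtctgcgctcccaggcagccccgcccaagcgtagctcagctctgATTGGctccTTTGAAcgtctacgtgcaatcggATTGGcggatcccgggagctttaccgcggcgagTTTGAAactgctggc
Mcm5: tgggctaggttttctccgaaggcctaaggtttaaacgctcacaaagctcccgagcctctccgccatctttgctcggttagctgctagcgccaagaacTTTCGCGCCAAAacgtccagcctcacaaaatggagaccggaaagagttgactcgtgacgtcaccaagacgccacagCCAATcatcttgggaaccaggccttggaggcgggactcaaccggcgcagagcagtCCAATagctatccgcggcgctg
Mcm6: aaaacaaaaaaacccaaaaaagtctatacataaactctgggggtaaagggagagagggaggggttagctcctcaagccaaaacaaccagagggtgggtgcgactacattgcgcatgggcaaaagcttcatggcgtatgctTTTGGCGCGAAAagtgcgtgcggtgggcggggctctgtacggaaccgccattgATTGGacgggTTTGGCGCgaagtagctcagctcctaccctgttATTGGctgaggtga
A match is a description of these letters only.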

How the data were processed

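Heart RNA of embryos at day 13.5 was sequenced in 1 wild-type and 1 Srsf10 knockout library, grouped by the genotype in the labels. The submitters' processing notes name Bowtie 0.12.2 and mm9. The sources used here do not give read filters, the annotation release or whether strand was used, so reads of overlapping or antisense genes cannot be separated. Per the file headers, the deposited counts are uniquely mapped reads for each Ensembl gene, and genes that a table does not list were set to 0 reads. The authors also deposited RPKM, scaled by listed length and library total, and a covered share of gene length whose values reach 100.1%.

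Symbols were matched for 17196 genes. Ratios are of reads per library read, with no pseudocount and with Clopper-Pearson 95% intervals (scipy 1.17.1). Reads carry no molecular identifiers, and the intervals and floors therefore cover counting error alone. A gene at 0 reads was set to 3 reads, or 0.0757 (WT) and 0.0771 (KO) reads per M. GC content and shared 31-base words came from GENCODE M21 and gene order on chromosome 4 from RefSeq (both GRCm38), and genes sharing at least 20% of words were taken as having near-identical copies. Ratios and intervals were checked on simulated counts that held counting error alone, so the check says nothing of variation between libraries or embryos. Alternatives were pseudocounts on RPKM, filters on low values, library totals, TMM factors (edgeR 4.0.16), centring by length, level or GC, and other limits. The 44 genes, the lists and the rules were chosen with earlier results of these data known. Named by rule are all 44 genes and, from each wider list, the most abundant gene and those with the highest and lowest ratio among those reaching an RPKM of 5 in one library. Other genes of the wider lists, and subunits or partners of some complexes, were named outside this rule with their values known. Cdkn2d, Myf5 and Fgb had no listed reads.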

Additional observations from a re-analysis of the deposited data

How the results depend on the processing

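No paired analysis was possible because each genotype has 1 library, and for the same reason no library could be left out. The number of the 44 genes at least 1.2-fold higher (1) or lower (4) depended on the limit, with 6 and 10 at 1.1-fold, 0 and 0 at 1.5-fold and 0 and 0 at 2-fold. The lower count was 2 with library totals taken without mitochondrial genes, 2 without the 100 most abundant genes, 2 when centred by expression level and 2 when centred by listed length, where the higher count was 0; the cause was not tested. The count of genes with less covered length, 5 at a limit of 5 points (11.4%, against 8.98% of all genes), was 7 at 3 points (15.9%, against 14.9%) and 2 at 10 points (4.55%, against 3.36%). Among genes with at least 1000 reads in both libraries these shares were 11.9%, 16.7% and 4.76%, against 4.64%, 9.13% and 1.42%. The limits were chosen after the data were seen. The difference between the replication and mitosis medians ran from 0.04, without genes that have near-identical copies, to 0.17, centred by listed length. The 4 rescalings of the library total shift all genes alike and cannot move it, and the filters left both sets whole, so these say nothing of its stability. Of the 44 genes, 40 kept their sign under each setting run, the exceptions being Ccnd1, Cenpf, Kif23 and Mcm3. The fewest reads behind one of the genes were 567, for Cdk6 in WT.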

Other observations

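Subunits of the same complex differed from each other, and these complexes were picked after their values were seen. In the NDC80 complex, which binds microtubules at the kinetochore, Spc24 was 1.44-fold lower (1.32 to 1.57) and Spc25 1.22-fold lower (1.15 to 1.31), whereas the intervals of Ndc80 and Nuf2 held 1. Spc24 had 1317 reads in WT and 900 in KO. In the chromosomal passenger complex, Cdca8 (borealin) was 1.22-fold lower (1.16 to 1.28), close to its partner Aurkb (1.27-fold lower), while Incenp was 1.05-fold higher (1.004 to 1.11) and the interval of Birc5 held 1.

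The origin recognition complex was 1.099-fold higher (1.07 to 1.13) in summed reads, with 5 of 6 subunits above 0. The subunits were not alike: Orc4 was 1.295-fold, Orc6 1.18-fold and Orc3 1.07-fold higher, whereas the intervals of Orc1, Orc2 and Orc5 held 1. The activating partner of Cdc7, Dbf4, was 1.11-fold higher (1.05 to 1.18). The GINS complex, which works with Cdc45 and the MCM helicase, had 3616 reads in WT and 3665 in KO, and its interval held 1.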
